A study of Mus musculus with 12 samples.

Results

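The hypoxia and glycolysis genes are 39 genes for glucose and lactate transport, for glycolysis and its regulation, and for the hypoxia-inducible factor (HIF) pathway and its other targets. They were taken by symbol and matched 40 of the 56093 entries of the count table, because Aldoa has a second Ensembl entry, ENSMUSG00000114515. Of the 40 entries, 25 belong to transport and glycolysis and 15 to the HIF pathway and other HIF targets, and all 40 passed the filter on low counts. The RNA came from the mouse melanoma line B16 carrying a hairpin RNA directed at Sdc1 (shSdc1) or, as control, at RFP (shRFP). Sdc1 encodes syndecan-1, a heparan sulfate proteoglycan of the cell surface. The 4 groups of 3 libraries were shSdc1 with IFNγ, shRFP with IFNγ, shSdc1 and shRFP, where IFNγ was given at 10 ng/ml for 24 h. All cells shared DMEM with 10% serum and 5% CO2; the sources used here give neither the oxygen level nor the number of hairpins, nor whether a line was 1 clone. Nor do the labels tie the 3 libraries of a group to separate cultures, and p-values then measure a spread between libraries that may be technical.

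When oxygen is present, prolyl hydroxylases of the EGLN family modify HIF-1α, which is then recognised by the VHL protein and degraded. In low oxygen HIF-1α accumulates, pairs with ARNT and binds hypoxia response elements near genes for glucose uptake, glycolysis, blood vessel growth, mitophagy and acid balance. HIF-1α is controlled largely at the protein level, and several HIF targets also respond to other factors, such as MYC for glycolytic enzymes and ATF4 for Ddit4. Tumour cells, melanoma included, often run glycolysis at a high rate even in oxygen.

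Depth ran from 14337771 to 21548940 counts per library, and the test covered 14089 genes. Levels are TMM-scaled CPM, and a log2 fold change is given with its standard error (SE); a gene passed at an edgeR adjusted p under 0.05 over all genes tested. Sdc1, the target of the hairpin, stood at 27, 25.1 and 25.4 CPM in shSdc1 with IFNγ, 83.3, 79.6 and 103 CPM in shRFP with IFNγ, 23.4, 22.1 and 25.7 CPM in shSdc1 and 76.4, 73.9 and 75.9 CPM in shRFP. All 6 knockdown libraries lay below all 6 control libraries, with log2 fold changes of -1.77 ± 0.08 with IFNγ and -1.67 ± 0.08 without. All 7 markers of melanocytes were expressed, with a summed level of 11750 to 13170 CPM in shSdc1 with IFNγ, 16610 to 18170 CPM in shRFP with IFNγ, 12940 to 13370 CPM in shSdc1 and 17240 to 17290 CPM in shRFP. They were thus lower in the knockdown, and 7 of 7 passed lower without IFNγ and 6 of 7 with it. Of 8 leukocyte markers 2 passed the filter, Cd3e and Adgre1 were at 0 in all libraries, and the list summed to 15.8 to 16.6 CPM in shSdc1 with IFNγ, 5.73 to 8.45 CPM in shRFP with IFNγ, 8.57 to 8.98 CPM in shSdc1 and 2.49 to 3.44 CPM in shRFP. The 2 tested leukocyte markers passed higher in the knockdown with IFNγ (log2 fold changes 1.20 and 1.24) and without (1.44 and 1.54). Among them Cd68 averaged 14.4 CPM in shSdc1 with IFNγ, 6.32 in shRFP with IFNγ, 7.25 in shSdc1 and 2.45 in shRFP. The part of either marker list in the results was not tested. In shSdc1 replicate 3 the entry ENSMUSG00000119584 held 4.79% of all counts, against 0.0842 to 0.195% in the other 11 libraries. Without that library 17 hypoxia and glycolysis entries passed in the knockdown without IFNγ, 15 of them lower; without that entry and the loci that have no Ensembl identifier, 25 passed, 22 of them lower.

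RefSeq promoter windows on GRCm38.p6, 250 bases before to 50 bases after a transcription start, were found for 36 of the 39 genes; Ndrg1, Slc2a3 and Bnip3l had none in the table. The windows were searched on both strands for ACGTG or GCGTG, the core of the hypoxia response element, which also lies within the E-box CACGTG that other factors bind. At least 1 core stood in any window of 33 of the 36 genes (91.7%), against 46.7% of all 27025 genes with a window. Counted by window, a core stood in 42 of 54 (77.8%), against 43.8% of all 32851 windows. The E-box stood in 6 of 36 genes (16.7%), against 8.09% of all genes. The list was made up of glycolysis genes and HIF targets, so these shares are not independent of how it was chosen. The shares of all genes were taken regardless of expression, and the differences were not tested. All 13 genes of the HIF pathway and other targets with a window held a core, as did 20 of 23 transport and glycolysis genes. Of the 15 entries that fell in the knockdown with and without IFNγ, 13 had a window and 12 held a core in at least 1 window. The share with a core among these 13 was close to the 33 of 36 given above. From the 13, Bnip3, Ankrd37, Ddit4, Slc16a1, Aldoc and Tpi1 were picked by hand to span HIF targets, a transporter and enzymes. Shown are these 6 and Hk1, which rose in both knockdown comparisons. Each is given 5′ to 3′ on the strand of its gene; capitals mark each core on either strand, and adjoining cores run together.
Bnip3, chr7:138909457-138909756, minus strand: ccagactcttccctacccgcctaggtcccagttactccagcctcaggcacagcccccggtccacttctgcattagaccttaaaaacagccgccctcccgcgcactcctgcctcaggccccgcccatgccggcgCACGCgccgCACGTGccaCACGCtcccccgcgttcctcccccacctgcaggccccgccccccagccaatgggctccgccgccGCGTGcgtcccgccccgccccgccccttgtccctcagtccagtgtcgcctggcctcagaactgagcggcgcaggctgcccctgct
Ankrd37, chr8:45999801-46000100, minus strand: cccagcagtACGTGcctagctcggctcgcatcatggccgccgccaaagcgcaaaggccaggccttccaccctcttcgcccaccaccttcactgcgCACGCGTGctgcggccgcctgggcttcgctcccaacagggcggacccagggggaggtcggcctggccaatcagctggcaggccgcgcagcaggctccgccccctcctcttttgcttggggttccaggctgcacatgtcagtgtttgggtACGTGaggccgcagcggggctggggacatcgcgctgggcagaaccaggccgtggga
Aldoc, chr11:78322823-78323122, plus strand: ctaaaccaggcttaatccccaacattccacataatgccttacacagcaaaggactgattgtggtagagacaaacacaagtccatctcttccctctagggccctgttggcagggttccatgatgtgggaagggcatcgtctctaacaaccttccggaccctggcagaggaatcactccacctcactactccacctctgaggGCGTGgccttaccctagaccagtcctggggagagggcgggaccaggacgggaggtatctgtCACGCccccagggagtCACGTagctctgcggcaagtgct
Slc16a1, chr3:104638414-104638713, plus strand: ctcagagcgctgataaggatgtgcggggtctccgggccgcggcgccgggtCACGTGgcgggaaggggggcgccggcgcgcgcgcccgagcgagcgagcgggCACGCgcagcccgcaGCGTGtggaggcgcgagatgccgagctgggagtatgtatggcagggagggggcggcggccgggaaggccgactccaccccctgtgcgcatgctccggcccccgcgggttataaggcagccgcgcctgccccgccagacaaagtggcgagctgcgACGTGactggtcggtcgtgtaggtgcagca
Ddit4, chr10:59951721-59952020, minus strand: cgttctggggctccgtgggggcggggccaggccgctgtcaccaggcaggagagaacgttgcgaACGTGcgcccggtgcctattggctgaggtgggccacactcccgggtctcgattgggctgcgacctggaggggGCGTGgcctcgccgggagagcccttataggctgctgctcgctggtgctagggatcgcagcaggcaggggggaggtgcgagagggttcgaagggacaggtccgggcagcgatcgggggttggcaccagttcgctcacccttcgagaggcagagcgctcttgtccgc
Tpi1, chr6:124814109-124814408, minus strand: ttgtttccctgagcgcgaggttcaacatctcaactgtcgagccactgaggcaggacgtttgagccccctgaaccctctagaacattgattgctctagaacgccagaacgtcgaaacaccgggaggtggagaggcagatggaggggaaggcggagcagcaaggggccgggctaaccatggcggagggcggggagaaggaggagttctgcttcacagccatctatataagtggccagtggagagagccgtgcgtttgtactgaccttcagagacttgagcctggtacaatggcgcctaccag
Hk1, chr10:62340372-62340671, minus strand: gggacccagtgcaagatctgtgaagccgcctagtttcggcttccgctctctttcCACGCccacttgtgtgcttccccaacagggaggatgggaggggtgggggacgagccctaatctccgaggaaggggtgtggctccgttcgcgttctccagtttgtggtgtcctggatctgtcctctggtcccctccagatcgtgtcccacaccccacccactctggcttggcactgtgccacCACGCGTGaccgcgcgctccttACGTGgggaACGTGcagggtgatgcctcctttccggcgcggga
Bnip3, Ankrd37 and Slc16a1 held 4 cores each, Aldoc 3 and Ddit4 2, and the Bnip3 and Slc16a1 windows each held 1 E-box. A second Aldoc window, not shown, held 1. Tpi1 held 0, and the downstream window of Hk1 shown here held 5 and the other Hk1 window 0. The number of cores was not tested against the changes in expression, and a match is a description of the sequence and not evidence of binding.

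Glycolytic enzymes were by far the most abundant of these transcripts. Divided by exon length, the order of the first 3 was Pgk1, Eno1 and Pkm in every group. Exon length here is the union of all annotated exons of a gene, which can exceed the length of a transcript. The order depends on it: in CPM it was Eno1, Pkm and Pgk1 in every group. The group means were 3809 to 4292 CPM for Eno1, 2891 to 3858 for Pkm and 1760 to 2054 for Pgk1. Pgk1 encodes the first ATP-forming kinase of the pathway, and averaged 794 CPM per kb in shSdc1 with IFNγ, 916 in shRFP with IFNγ, 784 in shSdc1 and 813 in shRFP. Slc16a3, the lactate exporter MCT4, was last in every group, at 0.216 to 0.250 CPM per kb. Among HIF targets Ddit4 stood at 13.9 CPM per kb in shSdc1 with IFNγ, 18.6 in shRFP with IFNγ, 15.3 in shSdc1 and 39 in shRFP. Car9, the surface carbonic anhydrase that HIF induces in many tumours, averaged 1.36 CPM per kb in shSdc1 with IFNγ, 1.08 in shRFP with IFNγ, 0.843 in shSdc1 and 0.876 in shRFP.

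The comparison of shSdc1 with shRFP asks how these genes differed between cells with reduced Sdc1 and control cells. Hypoxia and glycolysis transcripts were mostly lower in the knockdown. Whether reduced Sdc1 or another difference between the hairpin lines accounts for this was not tested. Without IFNγ 20 of the 40 entries fell, 2 rose and 18 did not pass; of all genes tested, 14.6% passed lower and 14.0% higher. With IFNγ 22 fell, 3 rose and 15 did not pass, against 17.4% of all genes lower and 18.9% higher. The median log2 fold change of the 40 entries was -0.21 with IFNγ and -0.14 without, while that of all genes tested was 0.02 and 0.00. The HIF pathway and other HIF targets fell in 8 of 15 cases with IFNγ and in 11 of 15 without, and 0 rose in either. Transport and glycolysis entries fell in 14 of 25 cases with IFNγ and in 9 of 25 without, with 3 and 2 higher. In bulk RNA, fewer cells that express a gene and less RNA per cell cannot be told apart. The 2 comparisons use different libraries, and 15 entries fell in both, which is 68.2% of those that fell with IFNγ and 75.0% of those that fell without it. Over all genes tested 1199 fell in both, 48.9% of those that fell with IFNγ and 58.3% of those that fell without it, and the difference between these shares was not tested. The 8 HIF pathway and target genes lower with IFNγ were all among the 11 lower without it.

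**Figure D1:**
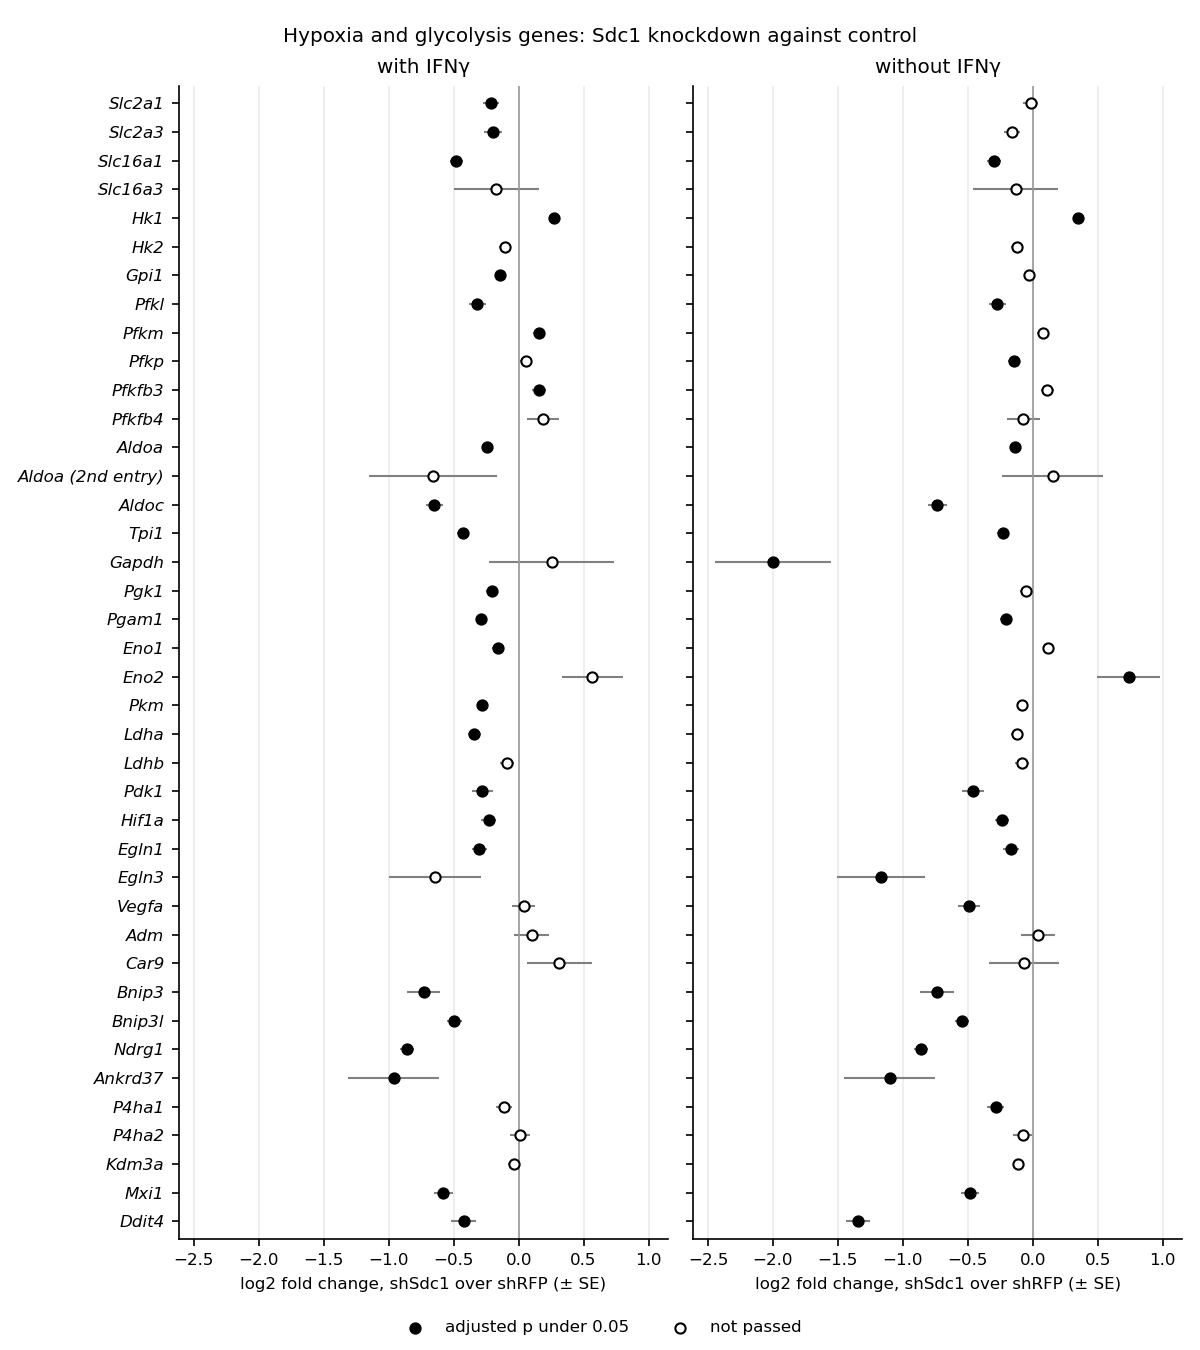
Log2 fold change (horizontal axis, shSdc1 over shRFP, bars are ± SE) of each of the 40 entries with IFNγ (left) and without (right), from transporters at the top to HIF targets at the bottom; filled points passed the test. Most filled points lie left of 0, among them Ndrg1 (-0.86 with IFNγ and -0.86 without) and Bnip3 (-0.73 and -0.73).

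The HIF pathway itself was represented by Hif1a, which encodes the regulated subunit, and by its prolyl hydroxylases Egln1 and Egln3. Hif1a stood at 116, 123 and 127 CPM in shSdc1 with IFNγ, 141, 137 and 152 CPM in shRFP with IFNγ, 122, 123 and 128 CPM in shSdc1 and 156, 148 and 135 CPM in shRFP. Every shSdc1 library was below every shRFP library, both with IFNγ (-0.23 ± 0.06, edgeR adjusted p = 0.00325) and without (-0.24 ± 0.06, edgeR adjusted p = 0.0033). Egln1, the main oxygen sensor of the pathway, had 53, 50.4 and 58.8 CPM in shSdc1 with IFNγ, 63, 71 and 65.5 CPM in shRFP with IFNγ, 61.6, 57.8 and 56.8 CPM in shSdc1 and 66.8, 67.2 and 63.8 CPM in shRFP. It fell with IFNγ (-0.30 ± 0.06, edgeR adjusted p = 0.000749). Its smaller fall without IFNγ (-0.17 ± 0.06, edgeR adjusted p = 0.0449) lay near the threshold, and leaving out any 1 of shRFP replicates 1, 2 and 3, shSdc1 replicates 2 and 3 or shSdc1 with IFNγ replicate 1 ended the call, at -0.14 to -0.19. The call also ended on all libraries with DESeq2 size factors, with the DESeq2 test and with no filter on low counts, each at -0.16. Egln3, the hydroxylase that HIF itself induces, was scarce, with 1.34, 1.71 and 0.933 CPM in shSdc1 with IFNγ, 2.25, 1.68 and 2.39 CPM in shRFP with IFNγ, 1.22, 1.75 and 0.855 CPM in shSdc1 and 3.56, 1.42 and 3.59 CPM in shRFP. The shRFP libraries ranged widely and overlapped with shSdc1. Egln3 fell without IFNγ (-1.17 ± 0.34, edgeR adjusted p = 0.0138), but not when shRFP replicate 1 (-0.95), shRFP replicate 3 (-1.0) or shSdc1 replicate 3 (-0.95) was left out, and it did not pass with IFNγ (-0.65 ± 0.35).

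Bnip3, Bnip3l, Ndrg1, Mxi1 and Ankrd37 fell in the knockdown both with and without IFNγ. Ndrg1, a stress-responsive differentiation and metastasis-related gene that HIF induces, had 50.6, 46.4 and 49.2 CPM in shSdc1 with IFNγ, 95.1, 85.6 and 84.5 CPM in shRFP with IFNγ, 43.6, 45.9 and 44.7 CPM in shSdc1 and 81.1, 78.6 and 83.9 CPM in shRFP. All 6 shSdc1 libraries lay far below all 6 shRFP libraries. The log2 fold change was -0.86 ± 0.05 with IFNγ (edgeR adjusted p = 5.85e-10) and -0.86 ± 0.05 without (edgeR adjusted p = 7.55e-10). Bnip3, a mitochondrial receptor for mitophagy, had 12.3, 9.75 and 14.3 CPM in shSdc1 with IFNγ, 18.3, 19.5 and 22.6 CPM in shRFP with IFNγ, 11.6, 10.1 and 9.47 CPM in shSdc1 and 18.9, 17.7 and 15 CPM in shRFP. It too lay lower in each shSdc1 library than in any shRFP library, with or without IFNγ (-0.73 ± 0.13 with IFNγ, edgeR adjusted p = 0.000188; -0.73 ± 0.13 without, edgeR adjusted p = 0.000287). Its relative Bnip3l, also called Nix, had 65.8, 59.9 and 67.7 CPM in shSdc1 with IFNγ, 87.1, 95.3 and 89.9 CPM in shRFP with IFNγ, 60.1, 60.9 and 59 CPM in shSdc1 and 91.3, 88.3 and 82.3 CPM in shRFP. The Bnip3l groups did not overlap, and it fell with IFNγ (-0.49 ± 0.06, edgeR adjusted p = 1.12e-06) and without (-0.54 ± 0.06, edgeR adjusted p = 4e-07); a near-identical copy held 6.55% of the summed counts of both.

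Mxi1, a MAX partner that opposes MYC, had 20.2, 17.2 and 17.7 CPM in shSdc1 with IFNγ, 25.9, 28.2 and 28.5 CPM in shRFP with IFNγ, 21.7, 22.3 and 21.8 CPM in shSdc1 and 32, 29.4 and 30.7 CPM in shRFP. Its shSdc1 libraries were all lower than its shRFP libraries, at a log2 fold change of -0.58 ± 0.07 with IFNγ (edgeR adjusted p = 4.54e-06) and -0.48 ± 0.07 without (edgeR adjusted p = 3.02e-05). Ankrd37, an ankyrin-repeat gene that HIF induces, was near the limit of detection, with 0.483, 0.472 and 0.60 CPM in shSdc1 with IFNγ, 0.992, 1.25 and 0.775 CPM in shRFP with IFNγ, 0.608, 0.50 and 0.305 CPM in shSdc1 and 0.912, 1.07 and 1.11 CPM in shRFP. All 6 shSdc1 libraries were lower than all 6 shRFP libraries, and Ankrd37 passed with IFNγ (-0.96 ± 0.35, edgeR adjusted p = 0.0377) and without (-1.10 ± 0.35, edgeR adjusted p = 0.0235). At this depth the calls were fragile: leaving out any 1 library of either group ended that with IFNγ except shRFP with IFNγ replicate 3 (-0.78 to -1.07), and leaving out shRFP replicate 2 or 3 or shSdc1 replicate 2 or 3 ended that without (-0.87 to -1.15). Both calls also ended on all libraries with the DESeq2 test (-0.97 with IFNγ and -1.11 without) and with no filter on low counts (-0.98 and -1.10).

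Ddit4 and Vegfa were highest in untreated control cells. Ddit4, also called REDD1, an inhibitor of mTORC1, had 23, 22.7 and 27.2 CPM in shSdc1 with IFNγ, 31.1, 27.8 and 38.8 CPM in shRFP with IFNγ, 25.9, 28.3 and 26.6 CPM in shSdc1 and 65.6, 68.4 and 71.2 CPM in shRFP. The shRFP libraries stood above all other 9, of which the highest was shRFP with IFNγ replicate 3. It fell in the knockdown both with IFNγ (-0.42 ± 0.10, edgeR adjusted p = 0.00221) and without (-1.34 ± 0.09, edgeR adjusted p = 1.81e-09). Vegfa, the vascular growth factor, had 30.9, 29.6 and 34.9 CPM in shSdc1 with IFNγ, 31.9, 26.5 and 34.4 CPM in shRFP with IFNγ, 41.6, 40.5 and 40.2 CPM in shSdc1 and 57.4, 62 and 52.3 CPM in shRFP. Without IFNγ each shSdc1 library was lower than each shRFP library (-0.49 ± 0.08, edgeR adjusted p = 0.000135). With IFNγ the groups overlapped (0.04 ± 0.09, edgeR adjusted p = 0.76), and the sign turned without shRFP with IFNγ replicate 2 (-0.07) or shSdc1 with IFNγ replicate 3 (-0.03).

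**Figure D2:**
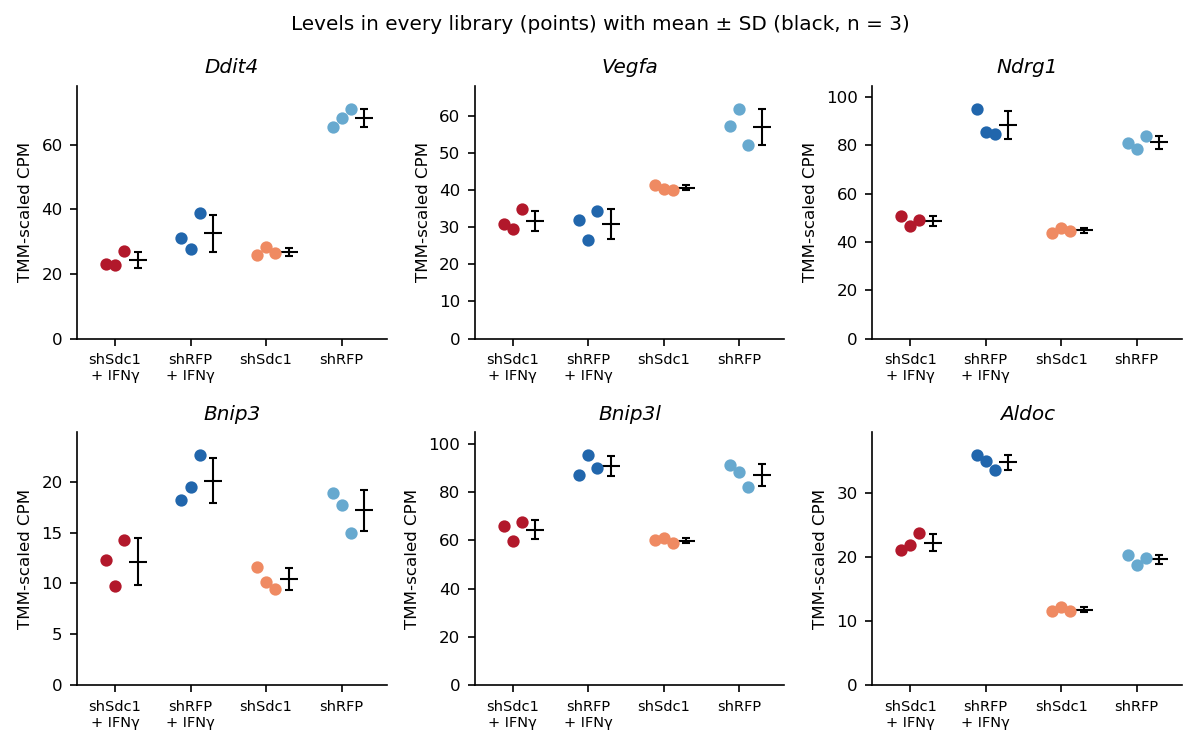
TMM-scaled CPM (vertical axis, from 0) of 6 genes in every library of the 4 groups (points), with the mean ± SD of 3 libraries in black. Ddit4 and Vegfa stand highest in shRFP (68.4 ± 2.77 and 57.2 ± 4.84 CPM), while Ndrg1, Bnip3, Bnip3l and Aldoc stand lower in shSdc1 than in shRFP with IFNγ as well as without.

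Car9, which regulates pH outside the cell, had 2.58, 2.54 and 4.26 CPM in shSdc1 with IFNγ, 3.11, 2.12 and 2.25 CPM in shRFP with IFNγ, 2.37, 1.44 and 2.02 CPM in shSdc1 and 2.14, 2.25 and 1.66 CPM in shRFP; the groups overlapped with and without IFNγ and it passed in neither knockdown comparison. P4ha1, a collagen prolyl hydroxylase, fell without IFNγ (-0.29 ± 0.06, edgeR adjusted p = 0.00229) to 40.3 ± 2.22 CPM in shSdc1, against 49 ± 3.54 CPM in shRFP (SD, n = 3 each). With IFNγ its groups overlapped and it did not pass (-0.11 ± 0.06). P4ha2, the vasodilator peptide gene Adm and the histone demethylase gene Kdm3a did not pass in either. Their levels over all 12 libraries were 21.3 to 28.3 CPM for P4ha2, 5.29 to 6.94 CPM for Adm and 149.9 to 203 CPM for Kdm3a.

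Among the transporters, Slc16a1, the lactate and pyruvate carrier MCT1, was lower in the knockdown. It stood at 128 ± 3.99 CPM in shSdc1 with IFNγ and 179 ± 6.94 CPM in shRFP with IFNγ (-0.48 ± 0.05, edgeR adjusted p = 6.38e-07), and at 119.5 ± 3.29 CPM in shSdc1 and 147 ± 10.3 CPM in shRFP (-0.30 ± 0.05, edgeR adjusted p = 0.000201; SD, n = 3 each). Slc2a1, the glucose transporter GLUT1, had 59.4, 53.3 and 58.4 CPM in shSdc1 with IFNγ, 66.1, 69.5 and 62.5 CPM in shRFP with IFNγ, 56.7, 56.7 and 57.6 CPM in shSdc1 and 53.7, 57.4 and 62.4 CPM in shRFP. The shRFP libraries with IFNγ were the highest, and Slc2a1 fell with IFNγ (-0.21 ± 0.06, edgeR adjusted p = 0.00956; not passed without shSdc1 with IFNγ replicate 2, at -0.17), while without IFNγ the groups overlapped. Slc2a3, or GLUT3, fell with IFNγ (-0.20 ± 0.07, edgeR adjusted p = 0.0256), not passed without shRFP with IFNγ replicate 2 (-0.17) or shSdc1 with IFNγ replicate 2 (-0.16) or 3 (-0.19). Slc16a3 ranged over 0.827 to 1.56 CPM and passed in no comparison.

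Hk1 rose in the knockdown with and without IFNγ. Hk1 and Hk2 encode hexokinases, which trap glucose in the cell, and Hk2 is the form HIF induces. Hk1 stood at 132 ± 3.01 CPM in shSdc1 with IFNγ, 109 ± 2.37 CPM in shRFP with IFNγ, 100.4 ± 1.44 CPM in shSdc1 and 78.9 ± 1.39 CPM in shRFP (SD, n = 3 each). It rose in the knockdown by 0.27 ± 0.04 with IFNγ (edgeR adjusted p = 3.6e-05) and 0.35 ± 0.04 without (edgeR adjusted p = 3.27e-06). Hk2 had 113, 104 and 113 CPM in shSdc1 with IFNγ, 121, 120.3 and 113 CPM in shRFP with IFNγ, 106, 108 and 104 CPM in shSdc1 and 116, 116 and 115 CPM in shRFP. Each shSdc1 library was below each shRFP library of the same treatment, barely so with IFNγ, yet Hk2 did not pass in either knockdown comparison. Per exon length, Hk1 made up 45.6 ± 1.18% of the hexokinase pair in shSdc1 with IFNγ, 39.2 ± 0.657% in shRFP with IFNγ, 39.8 ± 0.789% in shSdc1 and 32.4 ± 0.469% in shRFP (SD, n = 3 each). Within each treatment the knockdown shares lay above the control shares in every library, and the smallest p that an exact test of 3 against 3 allows is 0.1, so no test was made.

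At the phosphofructokinase step, which commits glucose to glycolysis, Pfkl fell, Pfkp fell without IFNγ and Pfkm rose with it. Pfkl, the liver type, fell with IFNγ (-0.32 ± 0.06, edgeR adjusted p = 0.000637) and without (-0.27 ± 0.06, edgeR adjusted p = 0.00294). Pfkm, the muscle type, rose with IFNγ (0.16 ± 0.04, edgeR adjusted p = 0.0104), a call that ended without shSdc1 with IFNγ replicate 2 (0.13) and with no filter on low counts (0.14). Pfkp, the platelet type, had 227, 223 and 219 CPM in shSdc1 with IFNγ, 219, 222 and 203 CPM in shRFP with IFNγ, 184, 197 and 179.7 CPM in shSdc1 and 209.6, 205 and 206 CPM in shRFP. It was lower in shSdc1 than in shRFP without IFNγ (-0.15 ± 0.04, edgeR adjusted p = 0.0187), not passed without shRFP replicate 1 (-0.14), shSdc1 replicate 1 (-0.14) or shSdc1 replicate 3 (-0.12), and the groups overlapped with IFNγ. Per exon length Pfkm was 43.5 ± 1.35% of the 3 subunits in shSdc1 with IFNγ, 38.2 ± 1.77% in shRFP with IFNγ, 43.9 ± 0.834% in shSdc1 and 38.9 ± 0.667% in shRFP. These shares rest on the lengths used. In CPM Pfkm was the lowest of the 3 in every group, in shSdc1 with IFNγ at 94.6, against 135 for Pfkl and 223 for Pfkp. Pfkfb3, whose product makes the activator fructose 2,6-bisphosphate, passed higher with IFNγ (0.16 ± 0.05, edgeR adjusted p = 0.0266). The Pfkfb3 call ended without any 1 of shSdc1 replicate 3, shRFP with IFNγ replicates 1 and 3 or shSdc1 with IFNγ replicates 1 and 3, at 0.13 to 0.15, and with DESeq2. Pfkfb4 did not pass in any comparison (6.76 to 9.20 CPM), and Gpi1, which converts glucose 6-phosphate, fell with IFNγ (-0.14 ± 0.04, edgeR adjusted p = 0.00729).

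Aldolase genes fell, Aldoc the most. Aldoc, the brain-type aldolase, had 21.1, 22 and 23.7 CPM in shSdc1 with IFNγ, 35.9, 35.1 and 33.6 CPM in shRFP with IFNγ, 11.5, 12.3 and 11.6 CPM in shSdc1 and 20.3, 18.8 and 19.8 CPM in shRFP. The shSdc1 libraries were lower than their shRFP counterparts with IFNγ (-0.65 ± 0.07, edgeR adjusted p = 3.62e-07) and without (-0.74 ± 0.07, edgeR adjusted p = 3.98e-07). Aldoa, the main aldolase, made up 97.4 to 98.8% of the pair per exon length in the group means, and fell with IFNγ (-0.24 ± 0.04, edgeR adjusted p = 4.59e-05) and without (-0.14 ± 0.04, edgeR adjusted p = 0.00836). Leaving out shRFP replicate 3 (-0.11) or shSdc1 replicate 3 (-0.12) ended the call without IFNγ. The second Aldoa entry held 0.376, 0.650 and 0.20 CPM in shSdc1 with IFNγ, 0.728, 0.997 and 0.211 CPM in shRFP with IFNγ, 1.09, 0.938 and 1.04 CPM in shSdc1 and 0.866, 1.13 and 0.760 CPM in shRFP. That entry passed in neither knockdown comparison, and the sources used here do not say how reads were split between the entries.

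Tpi1, triose phosphate isomerase, had 1033, 1006 and 1017 CPM in shSdc1 with IFNγ, 1306, 1487 and 1324 CPM in shRFP with IFNγ, 994, 984 and 949.7 CPM in shSdc1 and 1147, 1111 and 1184 CPM in shRFP. No shSdc1 library reached a shRFP library, with IFNγ (-0.43 ± 0.04, edgeR adjusted p = 2.87e-07) or without (-0.23 ± 0.04, edgeR adjusted p = 0.000396). Pgam1, phosphoglycerate mutase, fell with IFNγ (-0.29 ± 0.04, edgeR adjusted p = 3.24e-05) and without (-0.21 ± 0.04, edgeR adjusted p = 0.00105). Pgk1 had 1845, 1724 and 1776 CPM in shSdc1 with IFNγ, 1953, 2276 and 1934 CPM in shRFP with IFNγ, 1773, 1772 and 1735 CPM in shSdc1 and 1857, 1773 and 1846 CPM in shRFP. It fell with IFNγ (-0.21 ± 0.05, edgeR adjusted p = 0.00265), where shRFP with IFNγ replicate 2 was the highest library and the value without it was -0.13, and it did not pass without IFNγ.

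Eno1, the main enolase, had 3924, 3741 and 3855 CPM in shSdc1 with IFNγ, 4244, 4587 and 4047 CPM in shRFP with IFNγ, 4223, 4182 and 4009 CPM in shSdc1 and 3804, 3584 and 4037 CPM in shRFP. It fell in the knockdown with IFNγ (-0.16 ± 0.05, edgeR adjusted p = 0.0093), while without IFNγ the groups overlapped and it did not pass (0.12 ± 0.05, edgeR adjusted p = 0.0554). Eno2, the neuronal enolase, was scarce, with 4.99, 5.08 and 4.73 CPM in shSdc1 with IFNγ, 3.04, 3.36 and 3.59 CPM in shRFP with IFNγ, 4.13, 4.57 and 4.21 CPM in shSdc1 and 2.37, 3.97 and 1.31 CPM in shRFP. Eno2 rose without IFNγ (0.74 ± 0.24, edgeR adjusted p = 0.0278), but this call ended without any 1 library of either group other than shRFP replicate 2 (0.47 to 0.76; 1.16 without that one), and with IFNγ it did not pass (0.57 ± 0.23).

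Pkm, pyruvate kinase, had 3269.9, 3073 and 3165 CPM in shSdc1 with IFNγ, 3779, 4082 and 3712 CPM in shRFP with IFNγ, 2924, 2900.2 and 2850.0 CPM in shSdc1 and 2966, 3032 and 3174 CPM in shRFP. With IFNγ every shSdc1 library was lower (-0.28 ± 0.04, edgeR adjusted p = 1.06e-05), and without IFNγ it did not pass. Ldha, the lactate dehydrogenase subunit that favours lactate, had 1257, 1162 and 1219.7 CPM in shSdc1 with IFNγ, 1486, 1684 and 1438 CPM in shRFP with IFNγ, 1282, 1273 and 1269 CPM in shSdc1 and 1357, 1349.6 and 1452 CPM in shRFP. It likewise fell with IFNγ (-0.34 ± 0.05, edgeR adjusted p = 2.01e-05) and did not pass without, although the groups did not overlap. Ldhb passed in no comparison (84.8 to 110.0 CPM). Pdk1, a kinase that shuts off pyruvate dehydrogenase, had 31.9, 31.7 and 35.9 CPM in shSdc1 with IFNγ, 38, 43.9 and 38.4 CPM in shRFP with IFNγ, 24.4, 27.1 and 24.5 CPM in shSdc1 and 37.4, 35.8 and 31 CPM in shRFP. It was lower in each shSdc1 library with IFNγ (-0.28 ± 0.08, edgeR adjusted p = 0.00993; not passed without shRFP with IFNγ replicate 2, at -0.22). Without IFNγ the groups were also apart (-0.46 ± 0.08, edgeR adjusted p = 0.000266).

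Gapdh, the glyceraldehyde phosphate dehydrogenase gene that assays often use as a reference, varied within groups and is given by library. The entry held 46.9, 68.8 and 45.2 CPM in shSdc1 with IFNγ, 48.5, 43.8 and 42.5 CPM in shRFP with IFNγ, 53.4, 140.2 and 58.6 CPM in shSdc1 and 75.5, 481 and 453 CPM in shRFP. Thus shRFP replicates 2 and 3 stood far above the rest, shSdc1 replicate 2 followed, and shRFP replicate 1 (75.5 CPM) lay nearer to the other 8 libraries, the highest of which held 68.8 CPM. The highest replicate was 6.37 times the lowest in shRFP, whereas that ratio was at most 1.39 in the 30 other entries with a mean of at least 20 CPM, with a median of 1.08 over them. Transcripts at least 95% identical to Gapdh over at least 500 bases stood at 73 other entries, 66 of them with counts, and together these held 85.7% of the summed counts. Most were counted at the processed pseudogenes Gm7336 and Gm5559. The copies summed to 699 to 706 CPM in shSdc1 with IFNγ, 770.1 to 946 in shRFP with IFNγ, 749 to 775 in shSdc1 and 707 to 761 in shRFP. Within shRFP the copies held 709.5 CPM in replicate 1, 707 CPM in replicate 2 and 761 CPM in replicate 3. How reads were divided between Gapdh and its copies was not tested.

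Fitted as deposited, Gapdh fell in the knockdown without IFNγ (-2.0 ± 0.45, edgeR adjusted p = 0.0022), did not pass with it (0.26 ± 0.48, edgeR adjusted p = 0.716), and fell with IFNγ in shRFP (-2.90 ± 0.47, edgeR adjusted p = 0.000115). Summed with its copies, a step chosen after seeing the data, Gapdh gave -0.33 without IFNγ, -0.26 with IFNγ and -0.23 for IFNγ in shRFP, and of these only the first passed. The sign of the knockdown difference with IFNγ thus changed with the counting of copies. Without IFNγ the summed level was 828, 889 and 811 CPM in shSdc1 and 785, 1188.5 and 1214 CPM in shRFP. These groups overlapped, and shRFP replicate 1 lay below every shSdc1 library. With all entries summed with their copies, 21 hypoxia and glycolysis entries passed in the knockdown without IFNγ and 25 with it.

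**Figure D3:**
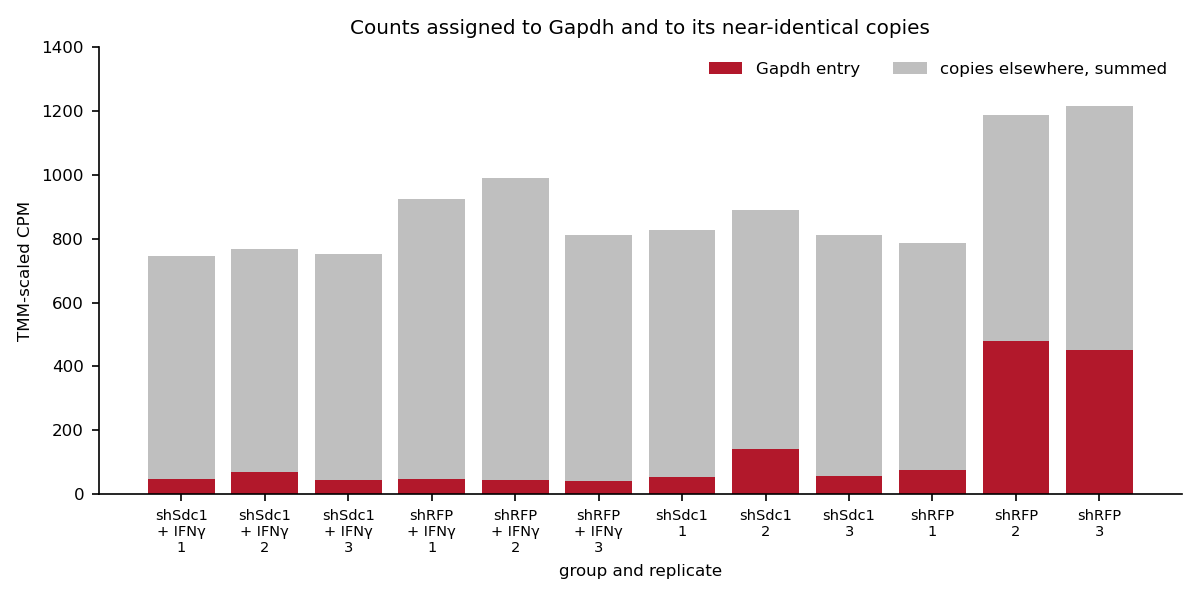
Counts assigned to Gapdh (red) and to its near-identical copies elsewhere (grey), as TMM-scaled CPM (vertical axis, stacked from 0) in each of the 12 libraries. The red part is tall in shRFP replicates 2 and 3 (481 and 453 CPM) and short in shRFP replicate 1 (75.5 CPM), while the grey part lies between 699 and 946 CPM in all 12.

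The comparison of IFNγ with none asks how these genes responded to the cytokine. In shRFP cells transport and glycolysis entries were mostly higher with IFNγ: 12 of 25 rose and 1 fell, and of the 15 HIF pathway and target genes 2 rose and 3 fell. Over all 40 entries 14 rose and 4 fell, against 17.2% of all genes higher and 14.4% lower; with upper-quartile scaling 9 rose and 6 fell, against 1759 genes higher and 2811 lower in place of 2422 and 2024. In shSdc1 cells 11 rose and 3 fell, against 17.5% of all genes higher and 13.0% lower, and with upper-quartile scaling 9 rose and 6 fell, against 2047 genes higher and 2495 lower in place of 2469 and 1826. Of the 11 that rose, 9 were of transport and glycolysis and 2 were HIF targets. The median log2 fold change of the 40 entries was 0.09 in shSdc1 and 0.10 in shRFP, and that of all genes tested was 0.00 and -0.01.

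Aldoc had the largest rise among the enzymes, by 0.91 ± 0.07 in shSdc1 (edgeR adjusted p = 1.34e-08) and 0.83 ± 0.07 in shRFP (edgeR adjusted p = 1.28e-08), with every treated library above every untreated one of the same cells. Hk1 rose by 0.39 ± 0.04 in shSdc1 and 0.47 ± 0.04 in shRFP (edgeR adjusted p = 5.09e-07 and 5.65e-08), whereas Hk2 did not pass in either. Aldoa, Pgam1 and Pkm also rose in both, Aldoa by 0.17 ± 0.04 in shSdc1 and 0.27 ± 0.04 in shRFP, Pgam1 by 0.18 ± 0.04 and 0.26 ± 0.04. The Pkm rise in shSdc1 (0.13 ± 0.04) did not pass without shSdc1 replicate 3 (0.11) or shSdc1 with IFNγ replicate 1 (0.11), or with upper-quartile scaling (0.09), while that in shRFP was 0.34 ± 0.04. In shRFP, Slc16a1 (0.28 ± 0.05) and Tpi1 (0.26 ± 0.04) rose as well. Smaller rises in shRFP ended with upper-quartile scaling, namely those of Slc2a1 (0.14), Pfkl (0.14), Pgk1 (0.12), Eno1 (0.12) and Ldha (0.09). Without shRFP with IFNγ replicate 2, the highest library of all 5, Ldha stood at 0.08 and Pgk1 at 0.09, against 0.15 and 0.17 with all libraries. Leaving out shRFP with IFNγ replicate 2 ended the calls of Slc2a1, Pfkl and Ldha, while those of Pgk1 and Eno1 held. Leaving out shRFP replicate 2 ended all 5 calls, and shRFP replicate 1 those of Slc2a1, Pfkl and Ldha.

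In shSdc1 the further rises were those of Pdk1 (0.39 ± 0.08, edgeR adjusted p = 0.00137), Pfkp (0.25 ± 0.04, edgeR adjusted p = 0.000221), Pfkm (0.17 ± 0.04, edgeR adjusted p = 0.0067) and Pfkfb3 (0.16 ± 0.05, edgeR adjusted p = 0.0311). Pfkfb3 did not pass with upper-quartile scaling (0.11) or without any 1 library of the 2 groups other than shSdc1 with IFNγ replicate 2 (0.14 to 0.16). The second Aldoa entry fell (-1.29 ± 0.45, edgeR adjusted p = 0.0367) at about 1 CPM, a call that ended without any 1 library of the 2 groups other than shSdc1 with IFNγ replicate 2 (-1.0 to -1.35). That call also ended with the DESeq2 test (-1.32).

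**Figure D4:**
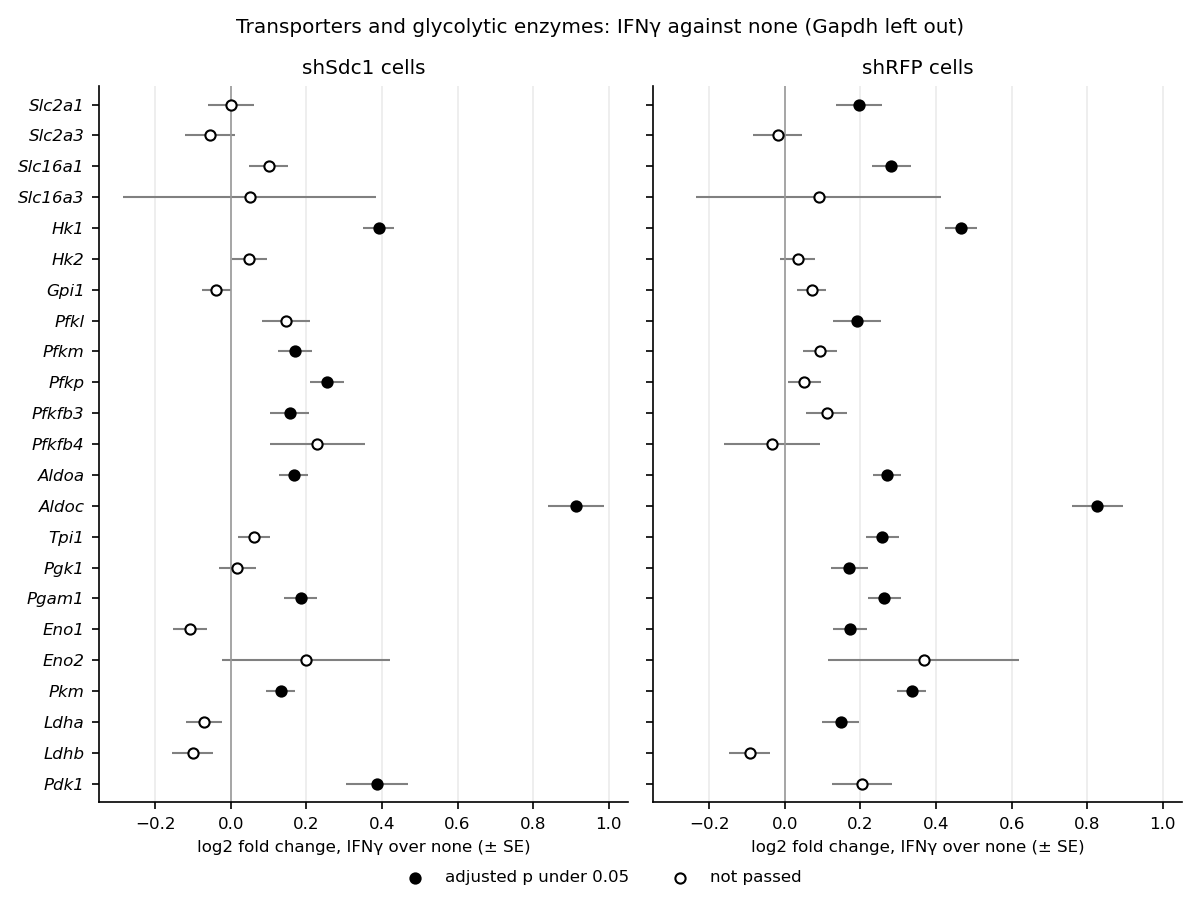
Log2 fold change (horizontal axis, IFNγ over none, bars are ± SE) of the transporters and enzymes, with Gapdh and the second Aldoa entry left out, in shSdc1 cells (left) and shRFP cells (right); filled points passed the test. Aldoc stands farthest right in both (0.91 in shSdc1 and 0.83 in shRFP), followed by Hk1.

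HIF targets went both ways with IFNγ. P4ha1 rose by 0.46 ± 0.06 in shSdc1 and 0.29 ± 0.06 in shRFP (edgeR adjusted p = 1.72e-05 and 0.0017), and Kdm3a rose by 0.34 ± 0.04 and 0.27 ± 0.04 (edgeR adjusted p = 3.46e-06 and 7.16e-05). Vegfa fell in shSdc1 (-0.36 ± 0.09, edgeR adjusted p = 0.00318) and in shRFP (-0.89 ± 0.08, edgeR adjusted p = 1.17e-07). Ddit4 did not pass in shSdc1, where the groups overlapped (-0.15 ± 0.10, edgeR adjusted p = 0.275), and fell in shRFP (-1.07 ± 0.09, edgeR adjusted p = 2.16e-08). Mxi1 fell in shSdc1 (-0.26 ± 0.07, not passed without shSdc1 with IFNγ replicate 2, at -0.21). P4ha2 fell in shRFP (-0.23 ± 0.08), a call that ended without any 1 library of the 2 groups except shRFP with IFNγ replicate 1 (-0.16 to -0.24). Hif1a, Egln1, Egln3, Bnip3, Bnip3l, Ndrg1, Ankrd37, Adm and Car9 passed in neither.

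The interaction asks whether the knockdown effect differed with IFNγ from that without, in log2 units. It passed in 7 of the 40 entries, 4 higher and 3 lower, against 4.58% of all genes higher and 5.15% lower; DESeq2 size factors gave 3 higher and 4 lower, and upper-quartile scaling 4 and 2. The count fell to 3 without shRFP replicate 2, shSdc1 replicate 1 or shSdc1 with IFNγ replicate 2, and to 4 without shRFP replicate 1 or shSdc1 with IFNγ replicate 3. The median over the 40 entries was 0.00, and that over all genes tested 0.02. For Ddit4 the difference was 0.92 ± 0.13 (edgeR adjusted p = 0.000344) and for Vegfa 0.53 ± 0.12 (edgeR adjusted p = 0.00961): the knockdown effect on both was less negative with IFNγ. Eno1 had -0.28 ± 0.06 (edgeR adjusted p = 0.0101), and its knockdown effect passed as a fall with IFNγ and did not pass without. These 3 genes passed under every alternative tried. Pkm (-0.20 ± 0.05), Tpi1 (-0.20 ± 0.06), Pfkp (0.20 ± 0.06) and Gapdh (2.25 ± 0.65) passed at edgeR adjusted p = 0.0239, 0.0484, 0.0491 and 0.0365, close to the threshold. Leaving out 1 library ended the Pkm call for shRFP replicates 1 and 2, shSdc1 replicates 1 and 2 and shSdc1 with IFNγ replicate 2 (-0.18 to -0.20), and the Tpi1 call for these and the other replicates of shSdc1 with IFNγ (-0.18 to -0.21). The Pfkp call held only without shSdc1 replicate 2 or shRFP with IFNγ replicate 2 and otherwise ended (0.16 to 0.21), and the Gapdh call held only without shRFP replicate 1, shSdc1 replicate 2 or shRFP with IFNγ replicate 3 (1.89 to 2.35 where it ended). Gapdh summed with its copies gave 0.07.

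Other genes of the same pathways were counted from lists drawn up with earlier results known. Of all genes tested, 36.3% passed in the knockdown with IFNγ and 28.6% without. The shares with IFNγ against none were 30.5% in shSdc1 and 31.6% in shRFP. In the knockdown with IFNγ, 3 of 24 further glycolysis and pyruvate genes tested (38 listed) rose and 3 fell, 25.0% together. Without IFNγ 2 rose and 7 fell (37.5%). With IFNγ against none, 7 rose and 1 fell in shSdc1 (33.3%) and 9 rose and 2 fell in shRFP (45.8%). Mpc2 (-0.61 ± 0.16) and Mpc1 (-0.47 ± 0.14), the pair that forms the mitochondrial pyruvate carrier, fell in the knockdown without IFNγ. Slc2a6, a glucose transporter family member, rose with IFNγ by 1.68 ± 0.05 in shSdc1 and 1.17 ± 0.05 in shRFP. Of 12 genes of oxygen sensing tested (14 listed), 3 fell with IFNγ and 1 without in the knockdown and 0 rose. The shares that passed, 25.0% and 8.33%, lay below those of all genes tested. Vhl, the recognition subunit of the ligase that degrades HIF-1α, was the one lower in both (-0.31 ± 0.08 with IFNγ and -0.39 ± 0.08 without).

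Of 34 further HIF targets tested (42 listed), 7 rose and 13 fell in the knockdown with IFNγ, so 58.8% passed. Without IFNγ 9 rose and 15 fell (70.6%). Of all genes tested, 36.3% passed with IFNγ and 28.6% without. The median log2 fold change of the further HIF targets was -0.10 with IFNγ and -0.15 without. Among those with a mean of at least 5 CPM the 3 largest changes in either comparison were falls. The transcriptional repressor gene Bhlhe41 fell with IFNγ (-1.05 ± 0.05) and without (-0.74 ± 0.05), as did the mitochondrial adenylate kinase gene Ak4 (-0.69 ± 0.09 and -0.67 ± 0.09). The largest change at any level, named after its values were seen, was a rise of Pdgfb, a platelet-derived growth factor gene (3.24 ± 0.60 with IFNγ and 2.12 ± 0.53 without), at means of 1.30 CPM in shSdc1 with IFNγ, 0.135 in shRFP with IFNγ, 1.06 in shSdc1 and 0.211 in shRFP. With IFNγ against none 9 rose and 3 fell in shSdc1 (35.3%) and 9 rose and 5 fell in shRFP (41.2%). With the same minimum of 5 CPM the largest change was that of Nampt, an enzyme of NAD synthesis (1.01 ± 0.04 in shSdc1 and 0.83 ± 0.04 in shRFP). Of 12 reference genes of assays, 2 rose and 3 fell in the knockdown with IFNγ and 5 rose and 0 fell without (41.7% each). The largest of these was Ppia with IFNγ (-0.26 ± 0.07) and the transferrin receptor gene Tfrc without (0.39 ± 0.04). Tfrc was also on the list of further HIF targets and is counted in both lists.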

How the data were processed

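Raw counts per gene in 12 libraries were used as deposited. HISAT2 2.0.5, HTSeq, Trimmomatic and the build GRCm39 appear in the submitters' processing notes; annotation and strand setting: not given in the sources used here. Thus overlapping or antisense genes cannot be told apart. Symbols, exon lengths and copies came from GENCODE M21 (GRCm38), and promoters from RefSeq; no coordinates were carried between builds.

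Genes were kept by filterByExpr (minimum count 10, total 15), scaled by TMM, and tested two-sided with edgeR 4.0.16 in R 4.3.3 by a quasi-likelihood fit with 1 coefficient per group over all 12 libraries (8 residual degrees of freedom). P-values were Benjamini-Hochberg adjusted over the 14089 genes at 0.05, with no fold minimum. The SE is the log2 fold change over the square root of F. CPM are counts scaled to the TMM library size. Libraries held 14337771 to 21548940 counts; levels near 1 CPM rest on few counts.

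The genes and lists were chosen with earlier results of these data known. Per-library values were given for 15 set genes, and for others that passed with a log2 fold change of at least 0.5 and a mean of at least 1 CPM, or that passed in the interaction; outside genes are the leading ones of each list. Alternatives were other scalings, DESeq2 1.42.0, other filters, the compared groups alone, a replicate block, and leaving out each library. Fits with copies summed (BLAST 2.17.0), and without the unnamed loci and ENSMUSG00000119584, were added after seeing the data. The edgeR fit was tested on simulated counts with known changes in shSdc1 without IFNγ.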

Additional observations from a re-analysis of the deposited data

Results flagged for a closer look

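The knockdown effect with IFNγ minus that without differed from 0 by a test of the interaction in 7 entries, on the log2 scale. It was 0.92 for Ddit4 and 0.53 for Vegfa, for which every shRFP library without IFNγ stood above all 9 others. It was -0.28 for Eno1, -0.20 for Pkm and -0.20 for Tpi1, enzymes whose highest library was shRFP with IFNγ replicate 2. It was 0.20 for Pfkp, lowest in the 3 shSdc1 libraries without IFNγ. It was 2.25 for the Gapdh entry, where shRFP replicates 2 and 3 stood at 481 and 453 CPM, and 0.07 after its near-identical copies were added. The Ddit4, Vegfa and Eno1 values passed under every alternative tried, and the other 4 did not.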

How the results depend on the processing

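The counts of hypoxia and glycolysis entries that passed stayed within 1.5 times in the 4 comparisons between groups under every alternative. In the interaction 7 passed; the replicate block gave 4, and leaving out 1 library gave 3 to 8. Over all genes the interaction count of 1371 became 789 to 1999 when 1 library was left out. Of the entries that passed, 16 of 22 in the knockdown without IFNγ and 19 of 25 with it, 10 of 14 for IFNγ in shSdc1 and 11 of 18 in shRFP, and 3 of 7 in the interaction passed under all alternatives. Values turned sign for Gapdh in the knockdown with IFNγ when copies were summed (-0.26), and for Vegfa there without 1 library (-0.072 and -0.03; lowest -0.072, highest 0.11 over all libraries left out); the cause was not tested. In the interaction, Pfkp, Tpi1 and Pkm did not pass with the replicate block (0.20, -0.20 and -0.20), nor did Gapdh with the DESeq2 test (2.25). The block also ended the calls of Egln1 in the knockdown without IFNγ (-0.17), Ankrd37 with IFNγ (-0.96) and Pfkfb3 for IFNγ in shSdc1 (0.16). No pairing by replicate number was seen: 0 of 18 same-numbered pairs had deviations correlated above 0.1 (-0.07 to 0.03). Whether same-numbered libraries were handled together cannot be told from these values. Without division by length Hk1 made up 54.5, 48.0, 48.6 and 40.6% of the hexokinase pair in shSdc1 with IFNγ, shRFP with IFNγ, shSdc1 and shRFP. Genes near 1 CPM (Ankrd37, Egln3, Slc16a3, the second Aldoa entry) are limited by depth.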
